A study of Mus musculus with 9 samples.

Results

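Respiratory complex I, NADH:ubiquinone oxidoreductase, is assembled from subunits encoded in the nucleus and in mitochondrial DNA, and this account follows the nuclear subunit genes in hearts of mice that lack Ezh2 in part of the heart. The members were all genes whose symbol begins with Ndufa, Ndufb, Ndufc, Ndufs or Ndufv, without the assembly factors named Ndufaf, and each was read at 1 probe set, the brightest on average of those annotated to that gene alone. This gave 36 of 19935 genes. Adult mice of a mixed C57BL/6 background gave RNA from the interventricular septum together with the right ventricle, and each sample was hybridised to its own Affymetrix array. The labels count 9 mice for the 9 arrays. The 4 Ezh2-deficient hearts were Ezh2f/f;Mef2cAHF::Cre, and the 5 wild-type hearts were Ezh2f/f without Cre by their genotype field, whereas their titles read f/wt. Ezh2 is the histone methyltransferase of the Polycomb system, and the Mef2c enhancer that drives Cre is active in embryonic progenitors of the anterior heart field, so cells of other origin in the tissue keep the gene. All Ezh2-deficient and no wild-type hearts carried Cre, so that loss of Ezh2 and the Cre transgene cannot be told apart.

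Complex I is the entry point for electrons from NADH into the respiratory chain of the inner mitochondrial membrane. Its matrix arm holds the N module, which oxidises NADH at a flavin, and the Q module, which passes the electrons along iron-sulfur clusters to ubiquinone. Its membrane arm, whose core is encoded by mitochondrial DNA, pumps protons that drive ATP synthesis. Accessory subunits surround this core and stabilise it. The adult heart is among the tissues richest in mitochondria, and its cardiomyocytes depend on oxidative metabolism for contraction.

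The table held 28815 probe sets as log2 values, with array medians between 7.19 and 7.25 and Pearson's r between arrays of 0.9897 to 0.9973. The first principal component (30.7% of the variance) separated wild-type arrays 4 and 5 from the rest, and the second (24%) separated Ezh2-deficient array 3. The Ezh2 probe set itself averaged 8.88 ± 0.11 (SD, n = 4) in Ezh2-deficient and 8.73 ± 0.12 (SD, n = 5) in wild-type hearts and did not pass limma's test (adjusted p = 0.485), so it does not check the labels. The 12 cardiomyocyte markers had means over all arrays of 12.8 to 14.2, as cardiac muscle would give. In bulk tissue, fewer cells of a type and less RNA per cell cannot be told apart.

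Nearly all complex I genes had slightly lower means in Ezh2-deficient hearts, and none of them differed enough to be called on its own. Of the 36 genes, 35 had a lower mean, against 51.6% of all 19935 genes, and the 35 include Ndufa11, whose group means differed by less than the second decimal. The median difference, Ezh2-deficient minus wild type, was -0.12 on the log2 scale over the members and -0.003 over all genes; the member median corresponds to a level 8.12% lower. By limma with Benjamini-Hochberg adjustment over all probe sets, 0 of the 36 passed at an adjusted p of 0.05, against 0.0347% of all probe sets, and the lowest adjusted p was 0.239. At an unadjusted p under 0.05, 13 of the 36 were lower (36.1%, against 5.78% of all genes) and 0 were higher (against 5.77%). In 6 of the 36 (16.7%, against 2.19% of all genes) every Ezh2-deficient array lay below every wild-type array, and in 0 above (against 2.1%). The largest member difference was 0.20 in size. At the members' median standard error of 0.07 a difference of 0.52 was needed to pass, and at their lowest standard error 0.34. These limits follow from the p-values of all probe sets in these data, and the member differences were smaller than both.

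**Figure D1:**
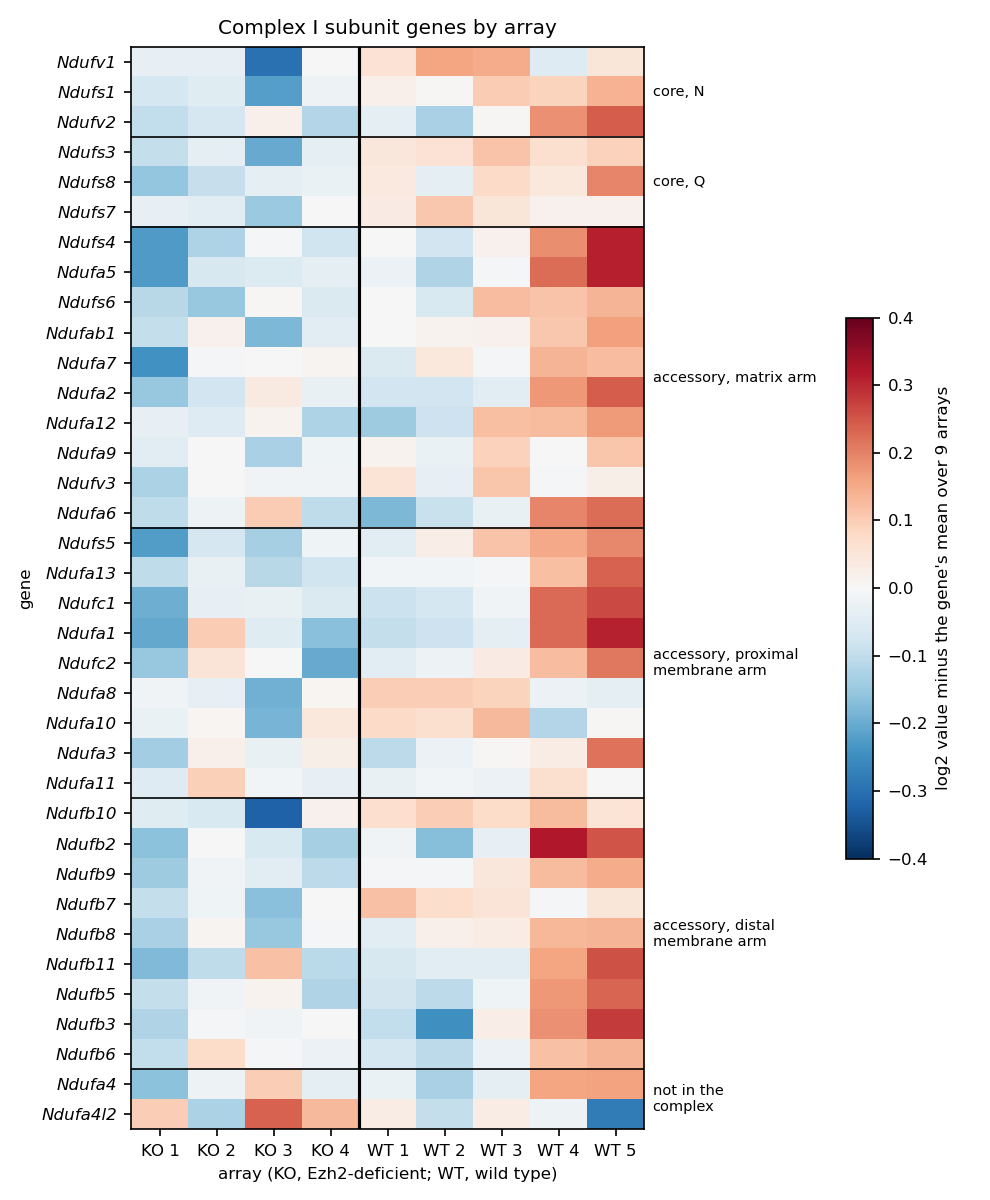
Heat map of the 36 complex I genes (rows, grouped by role) on 4 Ezh2-deficient (KO) and 5 wild-type (WT) arrays (columns). Colour gives the log2 value minus the gene's mean over all 9 arrays, blue for lower and red for higher; wild-type arrays 4 and 5 are red in most accessory rows, and Ezh2-deficient array 3 is the darkest blue cell in several core rows.

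The catalytic core came first by role. A total of 6 of its nuclear genes were read. In Ezh2-deficient hearts the mean was lower for all 6, the median difference being -0.15, 5 of them at an unadjusted p under 0.05 and 0 past the adjusted threshold. In the Q module, Ndufs3, which helps to form the ubiquinone-reducing part of the matrix arm, read 12.58, 12.64, 12.47 and 12.64 in Ezh2-deficient arrays 1 to 4, against 12.72, 12.73, 12.79, 12.74 and 12.77 in wild-type arrays 1 to 5. The groups did not overlap, Ezh2-deficient array 3 being the lowest of all. Its difference of -0.17 (SE 0.05, 95% interval -0.27 to -0.07) is a level 11.0% lower and had the lowest p of all members (limma adjusted p = 0.239). A second Ndufs3 probe set gave the same difference, -0.17 (SE 0.05).

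The other Q module genes showed smaller gaps. Ndufs7, which carries the last iron-sulfur cluster before ubiquinone, read 12.20, 12.18, 12.08 and 12.22 in Ezh2-deficient hearts, against 12.26, 12.34, 12.28, 12.24 and 12.25 in wild-type hearts. The groups lay close together without overlapping, and the difference was -0.10 (SE 0.04, adjusted p = 0.447). Ndufs8, which also binds iron-sulfur clusters, read 10.76, 10.82, 10.87 and 10.88 in Ezh2-deficient hearts, against 10.95, 10.87, 10.99, 10.95 and 11.10 in wild-type hearts. Here wild-type array 2 lay inside the Ezh2-deficient range, and the difference was -0.14 (SE 0.05, adjusted p = 0.394).

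In the N module, Ndufs1, the largest subunit and a carrier of iron-sulfur clusters, read 12.71, 12.73, 12.56 and 12.76 in Ezh2-deficient hearts, against 12.80, 12.79, 12.88, 12.87 and 12.92 in wild-type hearts. The groups did not overlap, Ezh2-deficient array 3 being the lowest, and the difference was -0.16 (SE 0.05, adjusted p = 0.328). Ndufv1, which binds NADH and the flavin, read 12.22, 12.22, 11.96 and 12.26 in Ezh2-deficient hearts, against 12.31, 12.42, 12.40, 12.21 and 12.31 in wild-type hearts. Wild-type array 4 lay among the Ezh2-deficient values, and Ezh2-deficient array 3 was far below the rest. The Ndufv1 difference was -0.16 (SE 0.07, adjusted p = 0.459) with all arrays and -0.09 without Ezh2-deficient array 3. Ndufv2, the partner of Ndufv1 in NADH oxidation, read 12.16, 12.19, 12.27 and 12.14 in Ezh2-deficient hearts, against 12.22, 12.13, 12.26, 12.44 and 12.50 in wild-type hearts. Apart from wild-type arrays 4 and 5 its groups covered nearly the same range, and the difference of -0.12 (SE 0.08, adjusted p = 0.618) became -0.01 without those arrays.

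**Figure D2:**
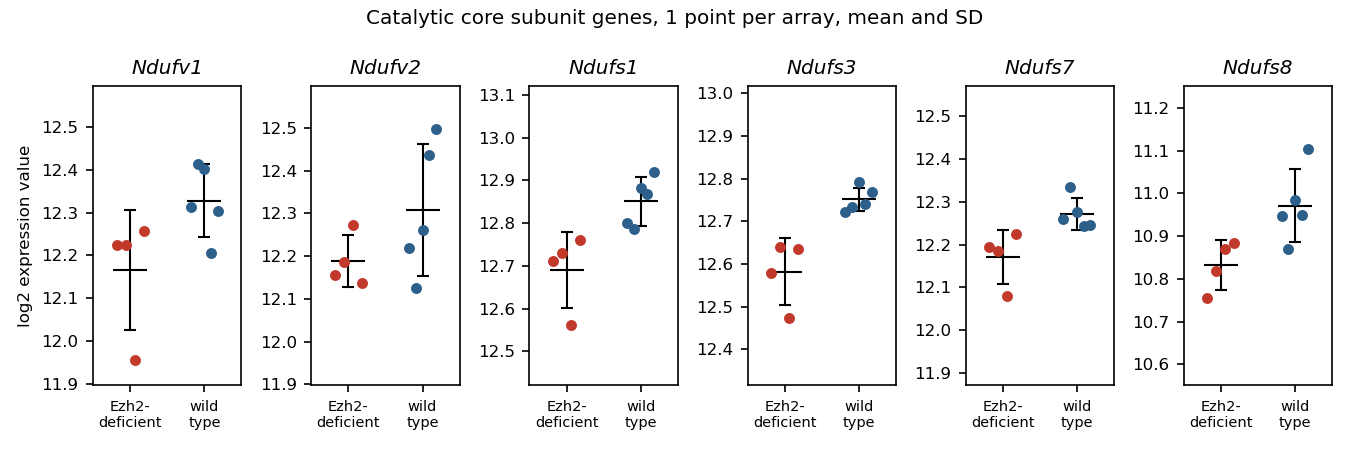
Log2 expression values of the 6 catalytic core genes read, 1 panel per gene, 1 point per array, Ezh2-deficient (4 arrays) at the left of each panel and wild type (5 arrays) at the right; bars are the mean ± SD and every y axis spans the same width without starting at 0. The groups do not overlap for Ndufs1, Ndufs3 and Ndufs7 and overlap for Ndufv1, Ndufv2 and Ndufs8.

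Promoters are shown for the members with the 2 lowest p-values and for Ndufa11, the member with the smallest difference, because nuclear respiratory genes are known to share binding motifs for Nrf1, GABP, estrogen-related receptors and Yy1. The sequences are the 250 bases before the annotated start on the gene's strand, from RefSeq (GRCm38.p6), with capitals for motif matches. Ndufs3 lies at chr2:90904722-90904971 on the minus strand, with a match to CCGGAAG, Ndufs5 at chr4:123718187-123718436 on the minus strand, and Ndufa11 at chr17:56717512-56717761 on the plus strand, the last 2 with a match to the Nrf1 palindrome.
Ndufs3: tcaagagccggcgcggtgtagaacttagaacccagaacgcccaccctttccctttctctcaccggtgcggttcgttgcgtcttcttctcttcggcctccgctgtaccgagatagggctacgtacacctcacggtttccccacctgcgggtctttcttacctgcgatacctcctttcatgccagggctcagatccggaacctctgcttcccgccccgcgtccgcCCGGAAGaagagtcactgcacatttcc
Ndufs5: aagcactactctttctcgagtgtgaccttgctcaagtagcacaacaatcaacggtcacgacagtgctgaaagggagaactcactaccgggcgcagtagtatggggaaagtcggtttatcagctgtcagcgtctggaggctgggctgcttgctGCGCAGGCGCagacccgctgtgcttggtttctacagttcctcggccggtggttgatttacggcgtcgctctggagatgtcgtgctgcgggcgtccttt
Ndufa11: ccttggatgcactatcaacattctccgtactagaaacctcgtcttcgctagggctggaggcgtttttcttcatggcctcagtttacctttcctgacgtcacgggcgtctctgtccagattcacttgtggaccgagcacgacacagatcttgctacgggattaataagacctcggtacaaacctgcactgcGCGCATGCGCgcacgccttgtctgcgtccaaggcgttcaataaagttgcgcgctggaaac
Such windows were found for 32 of the 36 members and searched on both strands, matches of different motifs being counted separately. The Nrf1 palindrome (GCGC, any base, then TGCGC) occurred in 5 of the 32 (15.6%, against 4.23% of 27025 genes): Ndufs5, Ndufs6, Ndufa5, Ndufa8 and Ndufa11. The GABP motif CCGGAAG occurred in 3 (9.38%, against 7.83%): Ndufs3, Ndufb6 and Ndufb7. The estrogen-related receptor motif TCAAGGTCA and the Yy1 motif AAGATGGC occurred in 0 of 32, against 0.422% and 1.83% of all genes. Genes with a match ranged from Ndufs5 and Ndufs3, with the 2 lowest p-values, to Ndufa11, which did not differ to the second decimal; a match of letters is not a measured binding site.

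Listed regulators of mitochondrial gene expression were not called either. Of the 12 read, 9 had a lower mean, 3 had an unadjusted p under 0.05 and 0 passed by limma (median difference -0.10). Tfam, which packages and transcribes mitochondrial DNA, read 8.57, 8.53, 8.50 and 8.62 in Ezh2-deficient hearts, against 8.77, 8.63, 8.66, 8.88 and 8.89 in wild-type hearts. Its groups just failed to overlap, and the difference was -0.21 (SE 0.06, adjusted p = 0.291). The coactivator gene Ppargc1b differed by -0.22 (SE 0.09, adjusted p = 0.403). The factor gene Nrf1 differed by -0.06 (SE 0.08, 95% interval -0.24 to 0.11) and Gabpa by -0.09 (SE 0.04, 95% interval -0.19 to 0.01).

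The accessory subunits of the matrix arm all had lower means in Ezh2-deficient hearts (10 of 10, median difference -0.10), with 3 at an unadjusted p under 0.05. Ndufs4, an accessory subunit of the N module whose loss causes mitochondrial disease in humans and mice, read 11.77, 11.87, 11.99 and 11.92 in Ezh2-deficient hearts, against 11.997, 11.92, 12.02, 12.18 and 12.31 in wild-type hearts. Its values overlapped, wild-type arrays 4 and 5 being the highest, and the difference of -0.20 (SE 0.08, adjusted p = 0.43) became -0.09 without them. Ndufab1, the mitochondrial acyl carrier protein, which also serves fatty acid and lipoic acid synthesis, differed by -0.14 (SE 0.05, adjusted p = 0.409), and a second probe set gave -0.16 (SE 0.06). Ndufs6, a zinc-binding subunit of the N module, differed by -0.14 (SE 0.06, adjusted p = 0.411). The other 7 differed by -0.17 (Ndufa5) to -0.05 (Ndufa6), and each of their intervals included 0.

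The accessory subunits of the proximal membrane arm gave a similar range. All 9 had a lower mean, counting Ndufa11, with a median difference of -0.14 and 2 at an unadjusted p under 0.05. Ndufs5, on the intermembrane-space side of the arm, read 10.63, 10.78, 10.72 and 10.83 in Ezh2-deficient hearts, against 10.81, 10.88, 10.97, 11.00 and 11.04 in wild-type hearts. Only Ezh2-deficient array 4 and wild-type array 1 overlapped, and this was the most negative difference of all members, -0.20 (SE 0.06, 95% interval -0.34 to -0.06, adjusted p = 0.305), a level 12.9% lower. Ndufa13, also known as GRIM-19, differed by -0.15 (SE 0.06, adjusted p = 0.421), and its groups did not overlap. Ndufa11 read 10.99, 11.14, 11.03 and 11.01 in Ezh2-deficient hearts, against 11.01, 11.03, 11.02, 11.11 and 11.04 in wild-type hearts. The groups overlapped fully, with a 95% interval of -0.10 to 0.10, and a second probe set gave 0.05 (SE 0.06). The X-linked Ndufa1 differed by -0.14 (SE 0.10) and by the same amount with the Y-linked gene level of each heart as a covariate. Ndufb11, a distal-arm subunit that is also X-linked, differed by -0.12 (SE 0.08) and by -0.14 with the Y-linked level as a covariate. That level was low in Ezh2-deficient arrays 1 and 3 (4.84 and 5.51) and wild-type array 4 (5.47), against 9.24 and 9.16 in the other Ezh2-deficient hearts and 8.64 to 9.38 in the other wild-type hearts. With it in the model, 34 of the 36 members had a negative difference, the median was -0.12, and 7 had an unadjusted p under 0.05. The share of all genes under that p in this fit is not given here.

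Among the accessory subunits of the distal membrane arm, 9 of 11 listed genes were read and all had a lower mean, with a median difference of -0.12 and 3 at an unadjusted p under 0.05. Ndufb4 shares its probe sets with Ndufb4b and was not among the members; its 2 probe sets both gave -0.16 (SE 0.12 and 0.13). Ndufb1 was not analysed here. Ndufb10 read 10.43, 10.41, 10.15 and 10.49 in Ezh2-deficient hearts, against 10.54, 10.57, 10.55, 10.60 and 10.53 in wild-type hearts. The groups did not overlap, the wild-type arrays lay close together, and Ezh2-deficient array 3 was the lowest. The difference was -0.19 (SE 0.07, adjusted p = 0.356) with all arrays and -0.11 without that array. Ndufb9, a member of the LYR family that binds the acyl carrier protein in the membrane arm, read 11.54, 11.66, 11.63 and 11.57 in Ezh2-deficient hearts, against 11.67, 11.67, 11.72, 11.80 and 11.83 in wild-type hearts. The groups were only just separate, and the difference was -0.14 (SE 0.05, adjusted p = 0.376). At the other end, Ndufb6 read 11.84, 12.01, 11.93 and 11.91 in Ezh2-deficient hearts, against 11.86, 11.83, 11.91, 12.05 and 12.07 in wild-type hearts. Its groups overlapped throughout and differed by -0.02 (SE 0.06).

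**Figure D3:**
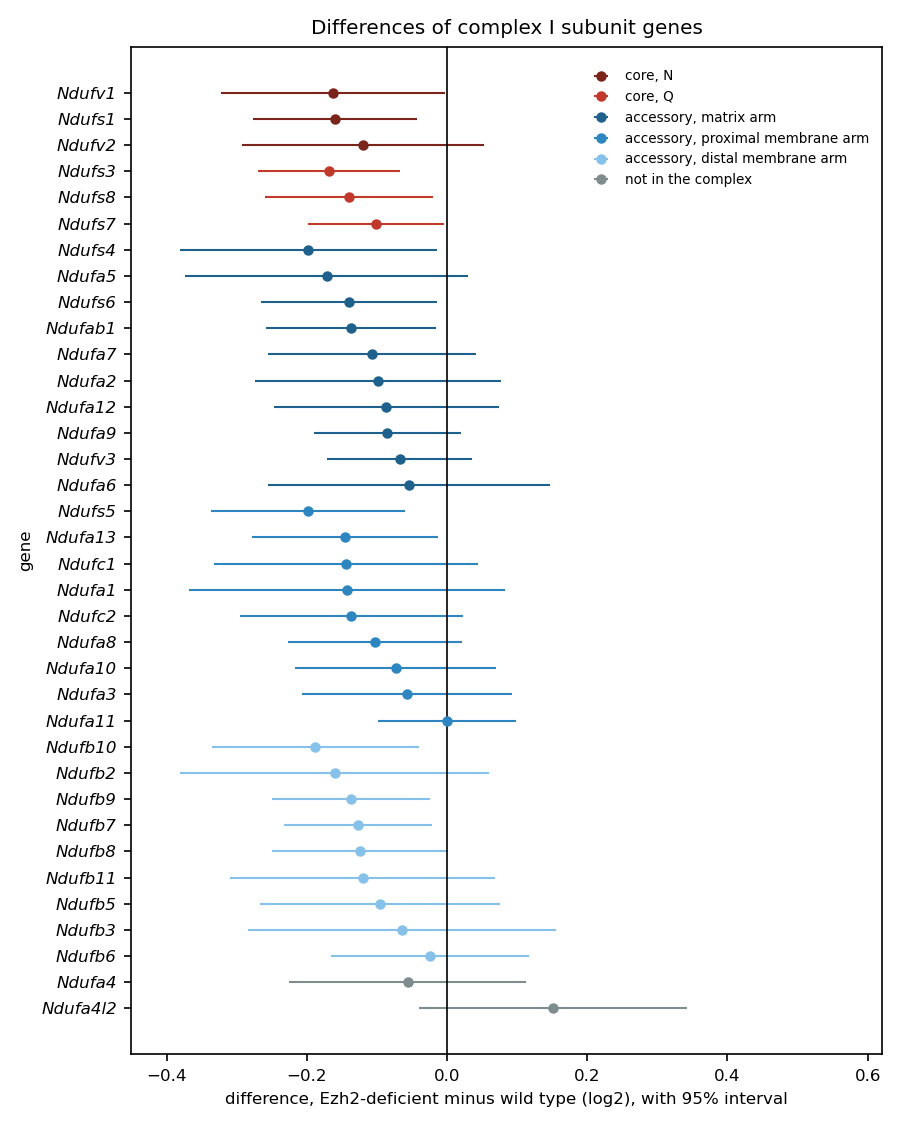
Difference in log2 level, Ezh2-deficient minus wild type, for the 36 genes grouped by role, with the 95% interval from limma as the bar and a line at 0. All points but Ndufa4l2 lie at or left of 0, 13 intervals lie wholly below 0, and 0 lie wholly above it.

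The prefix also takes in a pair of genes that are not structural subunits of complex I. Ndufa4, now assigned to cytochrome c oxidase, read 13.27, 13.42, 13.54 and 13.40 in Ezh2-deficient hearts, against 13.41, 13.31, 13.40, 13.60 and 13.60 in wild-type hearts. The groups overlapped, and the difference of -0.06 (SE 0.08, adjusted p = 0.827) was 0.03 without wild-type arrays 4 and 5. Ndufa4l2, a paralogue of Ndufa4 that is induced by hypoxia and is known to lower complex I activity, was the one member with a higher mean. It read 8.73, 8.50, 8.86 and 8.76 in Ezh2-deficient hearts, against 8.66, 8.53, 8.66, 8.61 and 8.35 in wild-type hearts. The groups overlapped through Ezh2-deficient array 2, and the difference was 0.15 (SE 0.09, 95% interval -0.04 to 0.34, adjusted p = 0.567). Without both genes, 34 of 34 members had a lower mean and the median difference was -0.13.

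The members did not vary together in a single way across the arrays. In 22 of the 36, wild-type arrays 4 and 5 were the 2 highest of all 9 arrays, against 9.76% of all genes. These 22 were 20 of the 28 accessory genes, 1 of the 6 core genes (Ndufv2) and Ndufa4. In 12 of the 36, Ezh2-deficient array 3 was the lowest, against 18% of all genes, and these were 4 of the 6 core genes (Ndufs1, Ndufs3, Ndufs7 and Ndufv1) and 8 of the 28 accessory genes. In a further 14 members Ezh2-deficient array 1 was the lowest, against 10.7% of all genes.

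The values were then compared with and without those arrays. Without wild-type arrays 4 and 5, 27 of the 36 had a lower mean (56.9% of all genes), the median difference was -0.07 (-0.01 over all genes) and 5 had an unadjusted p under 0.05. The core then had 6 of 6 lower with a median of -0.13, against -0.15 with all arrays, and the accessory genes 21 of 28 with -0.06, against -0.12 with all arrays. The largest shifts were in Ndufb2, whose difference of -0.16 became -0.02, and in Ndufa1, where -0.14 became -0.01. Without Ezh2-deficient array 3, 34 of the 36 had a lower mean, the core median was -0.12, the accessory median was -0.12, and 8 had an unadjusted p under 0.05. Without Ezh2-deficient array 1, 33 of the 36 had a lower mean and the median was -0.11. The core median was then -0.14, the accessory median was -0.10, and 4 had an unadjusted p under 0.05, the fewest with 1 array left out. Shares of all genes at an unadjusted p under 0.05 are not given here for these fits. Whether core and accessory genes differ in their response was not tested.

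**Figure D4:**
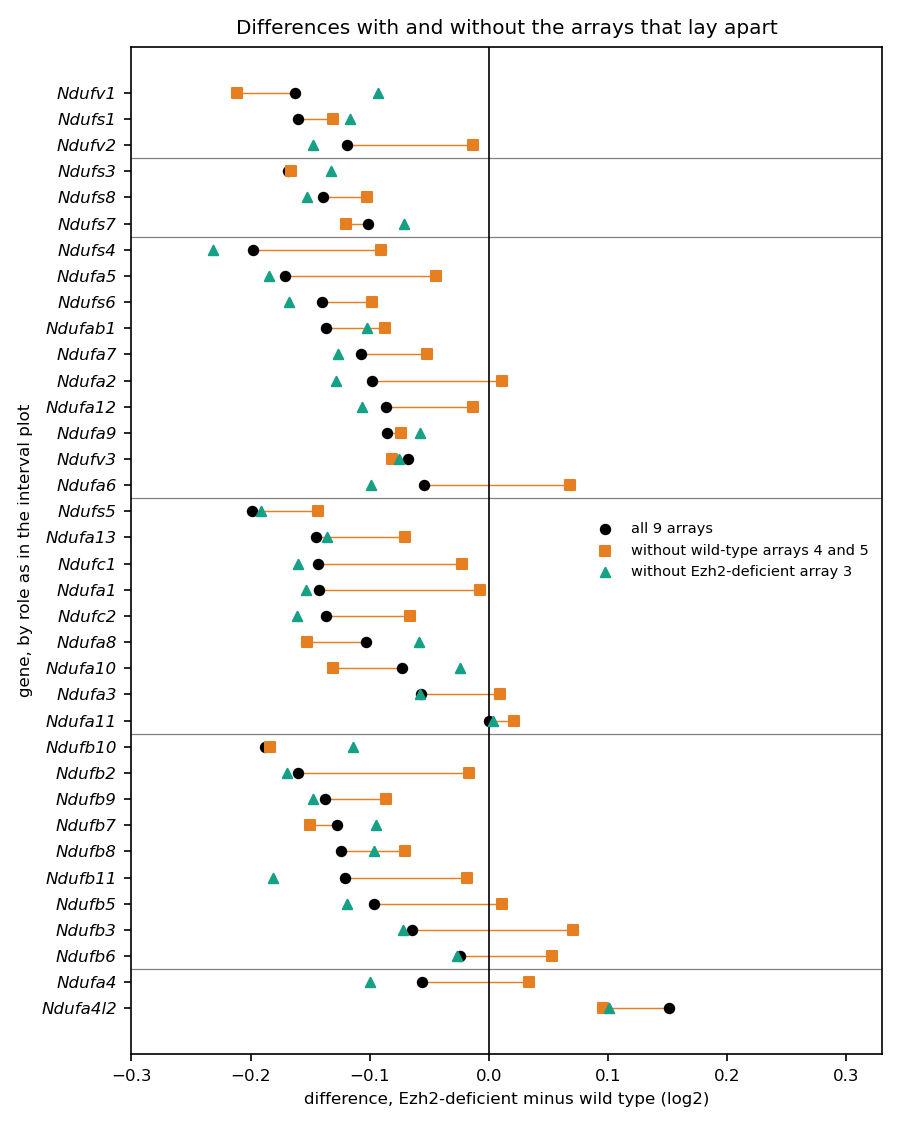
Difference in log2 level, Ezh2-deficient minus wild type, for each of the 36 genes with all 9 arrays (circles), without wild-type arrays 4 and 5 (squares, joined to the circle by a line) and without Ezh2-deficient array 3 (triangles). The squares move toward 0 for most accessory genes, such as Ndufb2 (-0.16 to -0.02), and stay near the circle for Ndufs3 and Ndufb10.

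Marker genes of other cell types also differed in mean between the groups, with 0 called in any list. All 10 fibroblast markers had a higher mean in Ezh2-deficient hearts; their mean level per array was 10.70 to 10.97 in Ezh2-deficient and 9.95 to 10.61 in wild-type hearts with a median difference of 0.55 and 7 at an unadjusted p under 0.05. All 8 endothelial markers were also higher in mean, at 10.60 to 10.77 per array in Ezh2-deficient hearts against 10.07 to 10.56 in wild-type hearts. All 12 cardiomyocyte markers had a lower mean, with a median difference of -0.06 and 1 at an unadjusted p under 0.05. The mean cardiomyocyte marker level was 13.33 to 13.56 in Ezh2-deficient and 13.50 to 13.60 in wild-type hearts, with the lowest value in Ezh2-deficient array 3. Of smooth muscle, macrophage and adipocyte markers, 6 of 7, 7 of 8 and 4 of 5 had a higher mean in Ezh2-deficient hearts. The adipocyte level was high in Ezh2-deficient array 2 alone, at 6.92 against 6.14 to 6.30 in the other Ezh2-deficient hearts and 6.23 to 6.37 in wild-type hearts. Ezh2-deficient array 3, the lowest in cardiomyocyte markers, had the highest mean of the 3 erythroid markers read, 8.83. The other Ezh2-deficient hearts read 7.47 to 7.56 and the wild-type hearts 6.95 to 7.69. Wild-type arrays 4 and 5, where accessory genes were highest, had the lowest cardiomyocyte marker means of the wild-type group, 13.50 and 13.51. Wild-type array 5, the highest array for 24 of the 36 members, was also the lowest of all 9 arrays in mean fibroblast (9.95), endothelial (10.07), smooth muscle (9.36), macrophage (8.14) and erythroid (6.95) marker level.

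Fits with these levels as a covariate, chosen after the data were seen, gave opposite shifts in the median over all members, but not in the core median. With the cardiomyocyte marker mean in the model, 34 of the 36 members had a negative difference, the median was -0.14 and 18 had an unadjusted p under 0.05. The share of all genes under that p in this fit is not given here. The core median was then -0.13, against -0.15 without the covariate, and the accessory median was -0.16, against -0.12. With the fibroblast marker mean in the model, 18 of the 36 were negative, the median was 0.00 and 0 had an unadjusted p under 0.05; the core kept a median of -0.05 and the accessory genes had 0.02. The fibroblast level did not overlap between the genotypes, its lowest Ezh2-deficient value being 10.70 and its highest wild-type value 10.61. A fit with both terms could be made, with larger standard errors (0.13 for Ndufv2, against 0.08 without the covariate). The part of cell makeup in the lower complex I levels beyond these values was not tested.

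**Figure D5:**
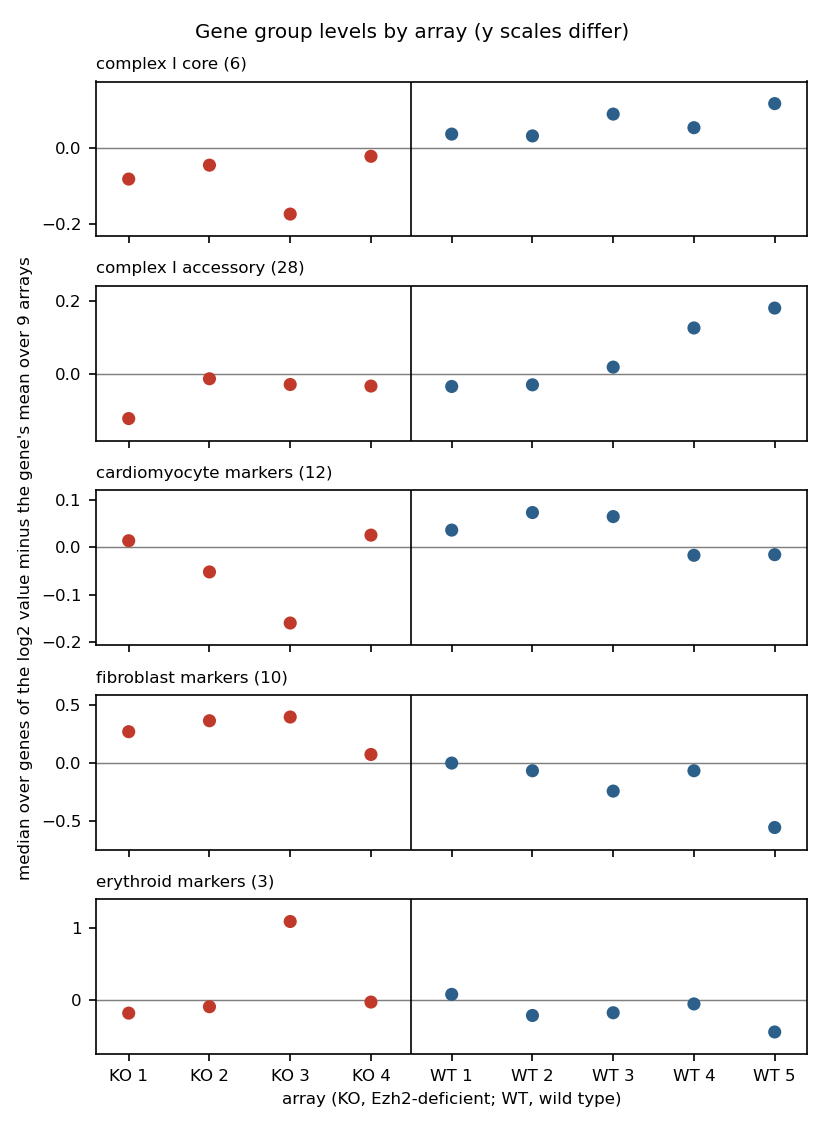
Median over the genes of each group of the log2 value minus the gene's mean over 9 arrays, 1 point per array, for the 6 core and 28 accessory complex I genes and for cardiomyocyte, fibroblast and erythroid markers; Ezh2-deficient (KO, red) left of wild type (WT, blue), with a y scale per panel. The core points are -0.17 to -0.02 in Ezh2-deficient and 0.03 to 0.12 in wild-type hearts, while the accessory points overlap (-0.12 to -0.01 and -0.03 to 0.18).

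The letter e or x in the sample titles, whose meaning the labels do not give, was treated as a possible batch. Letter e marks Ezh2-deficient arrays 1 and 4 and wild-type arrays 1 and 2, and letter x the others. Within letter e, 30 of 36 members had a lower mean with a median difference of -0.06, and within letter x 34 of 36 with -0.14; letter x takes in Ezh2-deficient array 3 and wild-type arrays 4 and 5, and letter e takes in Ezh2-deficient array 1, the lowest in 14 members. The difference was more negative within letter x for 31 of the 36, but 0 members passed a limma interaction test of genotype with letter (lowest adjusted p = 0.732, 0 at an unadjusted p under 0.05, against 5.61% of all genes). With the letter as a block the median was -0.12, and 34 of 36 were negative.

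The genes that assemble complex I were read beside its subunits. All 17 assembly factors read had a lower mean, with a median difference of -0.15; 7 had an unadjusted p under 0.05 and 0 passed by limma. Ndufaf4 read 9.40, 9.46, 9.27 and 9.26 in Ezh2-deficient hearts, against 9.50, 9.50, 9.53, 9.90 and 9.82 in wild-type hearts. The groups did not overlap, wild-type arrays 4 and 5 were again the highest, and the difference was -0.30 (SE 0.10, adjusted p = 0.311). Nubpl, which delivers iron-sulfur clusters to complex I, read 6.432, 6.735, 6.495 and 6.66 in Ezh2-deficient hearts, against 6.64, 7.04, 6.99, 6.88 and 6.84 in wild-type hearts. It lay below the array medians on all 9 arrays, its groups overlapped through wild-type array 1, and it differed by -0.30 (SE 0.09, adjusted p = 0.291). The 7 subunits encoded by mitochondrial DNA were not analysed here.

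The other respiratory complexes, read on the same arrays, are given side by side with complex I. Of 40 subunits of complexes II to V, 38 had a lower mean, the median difference was -0.10, 14 had an unadjusted p under 0.05 and 0 passed by limma. The medians were -0.13 for complex II (4 genes), -0.12 for complex III (9 genes), -0.09 for complex IV (12 genes) and -0.10 for complex V (15 genes). Sdhd, a membrane anchor of complex II, differed by -0.24 (SE 0.05, adjusted p = 0.147), more than any complex I member. Wild-type arrays 4 and 5 were the 2 highest in 19 of these 40 genes, and 34 of 40 had a lower mean without them, with a median of -0.08. The difference between complex I and the other complexes was not tested.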

How the data were processed

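The authors deposited 1 table of log2 signals with a value for each probe set on each array. Per the submitters' processing notes the tools were RMA and Affymetrix Power Tools, without versions or settings in the sources used. The log2 scale was read from the values (2.18 to 15.0) and the method's name. The table has no detection call. Groups came from the description labels; replicate numbers follow sample order and pair nothing.

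Of 28815 probe sets, 21780 had 1 symbol in the platform annotation, 1605 several and 5430 none. All 36 members matched a RefSeq gene by gene identifier, and for all 36 the symbol was the same. Differences were fitted with limma 3.58.1 in R 4.3.3 (functions lmFit and eBayes), genotype as the only term, two-sided, Benjamini-Hochberg adjusted over all 28815 probe sets, threshold 0.05. It was checked on simulated data. The number of arrays limits the precision. Named members were the core genes, Ndufa4, Ndufa4l2, the 5 lowest p, the 3 most negative and 3 most positive differences, and up to 2 of the lowest p in each role and pathway list, complexes II to V being treated together with 1 gene named; Nrf1, Gabpa, Ndufa1 and Ndufb2 were named after their values were seen. Members and lists were chosen with earlier results of these data known. Alternatives were further quantile normalization, median centring, a filter on dim probe sets, array weights, a trended robust prior, title letter, Y-linked level, marker levels, other probe set rules and arrays left out.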

Additional observations from a re-analysis of the deposited data

Results flagged for a closer look

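In 7 of 76 groups examined, 1 array lay farther from the others of its group than Dixon's 95% limit; chance alone gives about 1 group in 20. Ezh2-deficient array 1 was the low array for Ndufa5 (11.70, against 11.86 to 11.89 in the other Ezh2-deficient arrays), Ndufa7 (8.99, against 9.23 to 9.24), Ndufb3 (9.37, against 9.47 to 9.48), Ndufc1 (11.25, against 11.39 to 11.41) and Ndufv3 (9.64, against 9.75 to 9.76). The median deviation over all members was likewise low in that array, at -0.11 against -0.03 in each of the other 3. Ndufv1 was low in Ezh2-deficient array 3, at 11.96 against 12.22 to 12.26 in the others. These genes share their arrays, so the 7 are not independent of each other.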

How the results depend on the processing

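No paired analysis was possible because the replicate numbers were given in sample order. In all 24 alternatives 0 members and 0 genes of the pathway lists were called by limma (lowest adjusted p over members 0.148). The count at an unadjusted p under 0.05 was less stable: 13 in the main analysis, 4 to 14 with 1 array left out (4 without Ezh2-deficient array 1, 8 without Ezh2-deficient array 3 and 7 without wild-type array 5), 7 after further quantile normalization, 4 within letter e, 6 within letter x, 7 with the Y-linked level as a covariate, 5 without wild-type arrays 4 and 5 and 0 with the fibroblast level. The count of lower means was 33 to 35 and the median difference -0.14 to -0.10 with 1 array left out; with the fibroblast level they were 18 and 0.00, and the standard errors there were larger (0.13 for Ndufv2, against 0.08). Shares of all genes at an unadjusted p under 0.05 are not given here for these alternatives. Some named differences changed sign. Ndufb6 gave 0.027 within letter e, 0.0528 without wild-type arrays 4 and 5, -0.0535 to 0.0065 with 1 array left out, and 0.10 with the fibroblast level. Ndufa4 gave 0.0334 without wild-type arrays 4 and 5 and 0.0399 with the fibroblast level, which also turned Ndufv2 (0.0453), Ndufs4 (0.0112) and Ndufa4l2 (-0.0644). The cause was not tested.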

Other observations

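Genes that supply complex I with cofactors and imported proteins were also read. The mean in Ezh2-deficient hearts was lower for all 11 iron-sulfur cluster assembly genes read (median difference -0.10), with 5 at an unadjusted p under 0.05 and 0 called by limma. Nfs1, the cysteine desulfurase that provides the sulfur, averaged 10.13 ± 0.11 in Ezh2-deficient and 10.34 ± 0.09 in wild-type hearts (SD, n = 4 and 5; difference -0.21, SE 0.07, limma adjusted p = 0.313). Isca1, a later-acting cluster assembly protein, differed by -0.10 (SE 0.04, adjusted p = 0.397), and its groups did not overlap. Of 10 genes of the mitochondrial outer membrane and protein import, 9 had a lower mean (median difference -0.07), with 3 at an unadjusted p under 0.05 and 0 called. Vdac1, the main outer membrane channel, differed by -0.14 (SE 0.05, adjusted p = 0.341), and Timm44, part of the import motor, by -0.15 (SE 0.06, adjusted p = 0.389).

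A total of 5 members have a further single-symbol probe set, and several members have annotated pseudogenes, so a probe set may read more than 1 gene copy. The further probe sets of Ndufc1 and Ndufb11 gave -0.09 and -0.16, against -0.14 and -0.12 at the probe sets used.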
